A study of Homo sapiens with 12 samples.

Results

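Most of the genes described here code for the core proteins of the spliceosome and for the RNA-binding proteins that direct it. They were taken as the protein-coding genes of GENCODE release 44 on chromosomes 1 to 22 and X whose symbol starts with SNRNP, SNRP, SF3A, SF3B, PRPF, SRSF, HNRNP or LSM, which gave 95 of 19970 genes. There were 27 HNRNP genes, 15 LSM, 13 PRPF, 12 SRSF, 12 SNRP, 7 SNRNP, 6 SF3B and 3 SF3A genes. Of these, 3 matched the rule by name only: LSMEM1 and LSMEM2, which code for membrane proteins, and HNRNPUL2-BSCL2, a readthrough transcript unit that shares the promoter region of HNRNPUL2. The other 92 were read by role. They include 6 LSM genes outside the U6 ring, among them LSM1 of mRNA decay and LSM10 and LSM11 of the U7 snRNP. All 95 are called splicing genes below.

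The study asked where heat shock factor 1 (HSF1) sits on chromatin in Huh7, a human hepatocellular carcinoma cell line, and how this relates to histone acetylation. CUT&Tag, in which an antibody brings a transposase to a chromatin protein so that the DNA beside it is cut and tagged, was done on untreated Huh7 cells with an HSF1 antibody (1 library) and, as a positive control, with an antibody to acetylated lysine 27 of histone H3 (H3K27ac, 1 library). For HSF1, 2712212 of 3604911 tags were left once duplicates had been removed, and 7342 peaks were listed on the hg38 genome. For H3K27ac only 896393 of 15737890 tags (5.70%) were left, and 1392 peaks were listed. The ChIP-seq and RNA-seq samples of the series were not used here. With 1 library for each antibody no difference between libraries could be tested, and the 95% Wilson intervals below cover the counting of genes only. Of 18 hepatocyte marker genes, 5 (APOA2, APOB, FGA, FGG and HNF4A) had an HSF1 summit within 1 kb of a start (27.8%, 12.5% to 50.9%), close to the 25.5% of all coding genes. None had an H3K27ac summit there, ALB and AFP included, and 3.32% of all coding genes had one. Of 6 markers of other cell types, 1 (COL1A1) had an HSF1 summit and none an H3K27ac summit.

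HSF1 is the main activator of chaperone genes after heat and other proteotoxic stress, where it binds repeats of the pentamer nGAAn, the heat shock element. In cancer cells it also occupies many genes outside the heat shock response. The spliceosome removes introns from pre-mRNA: small nuclear ribonucleoproteins (snRNPs) recognise the splice sites, the U4/U6.U5 tri-snRNP joins them, and RNA helicases rearrange the whole into its catalytic form. SR proteins and heterogeneous nuclear ribonucleoproteins (hnRNPs) bind exons and introns and steer which sites are used. The pentamer CCAAT is a promoter element bound by the factor NF-Y, usually a short distance before the transcription start.

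The sequences below show the CCAAT boxes of these genes as they lie in hg38, since the boxes recurred under the HSF1 summits of several of the highest peaks. Each is read 5′ to 3′ on the strand of the gene and runs from 10 bases before the first to 10 bases after the last box within 100 bp of the summit. Capitals mark the box, as CCAAT where it is on the strand of the gene and as ATTGG where it is on the other. The stretches were chr19:38850456-38850542 (minus strand) for HNRNPL, chr14:21269547-21269682 (minus) for HNRNPC, chr19:40750754-40750847 (plus) for SNRPA, chr19:41263912-41263990 (plus) for HNRNPUL1, chr11:60906671-60906771 (minus) for PRPF19, chr12:95858867-95858916 (plus) for SNRPF, chrX:101408039-101408095 (plus) for HNRNPH2 and chr12:120495984-120496039 (minus) for SRSF9. None of these 8 stretches overlapped an annotated exon. This does not hold for all boxes at the summits, since the stretches of SNRPD2 and HNRNPA1, not shown, lay wholly within annotated exons. The peaks of PRPF19, SNRPF, HNRNPH2 and SRSF9 were lower, with 16, 13, 10 and 10 tags at the summit. The summit of SRSF9 lay 110 bp from one of its annotated starts and 26 bp from a start of DYNLL1 on the other strand. It was 26.3 kb from the start of the transcript that the annotation tags as canonical. HNRNPD, with 32 tags, had no box within 100 bp of its summit.
HNRNPL: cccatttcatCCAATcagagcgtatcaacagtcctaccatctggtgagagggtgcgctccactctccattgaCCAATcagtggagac
HNRNPC: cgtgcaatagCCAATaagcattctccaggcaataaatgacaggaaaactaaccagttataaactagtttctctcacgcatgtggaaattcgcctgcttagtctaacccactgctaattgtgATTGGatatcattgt
SNRPA: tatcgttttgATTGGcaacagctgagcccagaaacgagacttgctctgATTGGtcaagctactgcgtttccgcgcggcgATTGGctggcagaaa
HNRNPUL1: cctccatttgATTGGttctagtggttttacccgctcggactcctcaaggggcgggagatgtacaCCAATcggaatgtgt
PRPF19: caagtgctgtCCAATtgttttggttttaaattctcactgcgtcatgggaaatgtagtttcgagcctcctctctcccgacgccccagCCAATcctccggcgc
SNRPF: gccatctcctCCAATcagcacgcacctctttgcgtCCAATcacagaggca
HNRNPH2: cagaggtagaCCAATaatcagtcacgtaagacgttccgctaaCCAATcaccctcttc
SRSF9: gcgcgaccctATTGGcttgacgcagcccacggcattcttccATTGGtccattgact

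Boxes of the same kind stood before the starts of genes that had no HSF1 summit. Those of HNRNPAB (chr5:178204405-178204472, plus strand) and SRSF3 (chr6:36594282-36594321, plus strand) are shown for comparison, since both genes lacked an HSF1 summit.
HNRNPAB: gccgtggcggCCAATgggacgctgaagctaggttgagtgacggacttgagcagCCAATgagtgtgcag
SRSF3: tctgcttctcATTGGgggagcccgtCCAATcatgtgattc

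A match to the 3-unit heat shock element, with the units GAA, TTC and GAA each set apart by 2 bases of any kind and searched on both strands from 150 bp before to 50 bp after the canonical start (the start of the transcript that the annotation tags as Ensembl canonical), was found in 1 of the 95 genes, HNRNPA2B1 (chr7:26200767-26200789, minus strand, within an annotated exon). It lay 220 bp downstream of the HSF1 summit of that gene. Over all coding genes 0.230% had a match in this window, and over those with an HSF1 summit 0.275%. The shorter form GAANNTTC, which every match to the longer one contains, was found in 3 of the 95 genes (3.16%), close to the 3.28% of all coding genes.
HNRNPA2B1: gggggGAAGGTTCTAGAAaagcg

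HSF1 summits were found at a larger share of the splicing genes than of all coding genes. A gene is called bound below when the summit of a peak in the HSF1 list lay within 1 kb of any of its annotated transcript starts. By this rule 55 of 95 genes were bound (57.9%, interval 47.9% to 67.3%), against 5095 of 19970 coding genes (25.5%, 24.9% to 26.1%), a ratio of 2.27. Without the 3 genes matched by name only, 54 of 92 were bound (58.7%). Their highest summits belonged to 54 distinct peaks, because HNRNPUL2 and its readthrough unit have the same one. The prefixes ranged from 5 of 6 SF3B genes (83.3%, 43.7% to 97.0%) and 19 of 27 HNRNP genes (70.4%, 51.5% to 84.2%) to 4 of 13 PRPF genes (30.8%, 12.7% to 57.6%) and 1 of 3 SF3A genes. The intervals of the SF3B, HNRNP, SNRP (8 of 12) and SRSF (7 of 12) genes and of the LSM genes (8 of 15) lay above the share over all coding genes, while those of the PRPF, SNRNP (3 of 7) and SF3A genes included it.

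**Figure D1:**
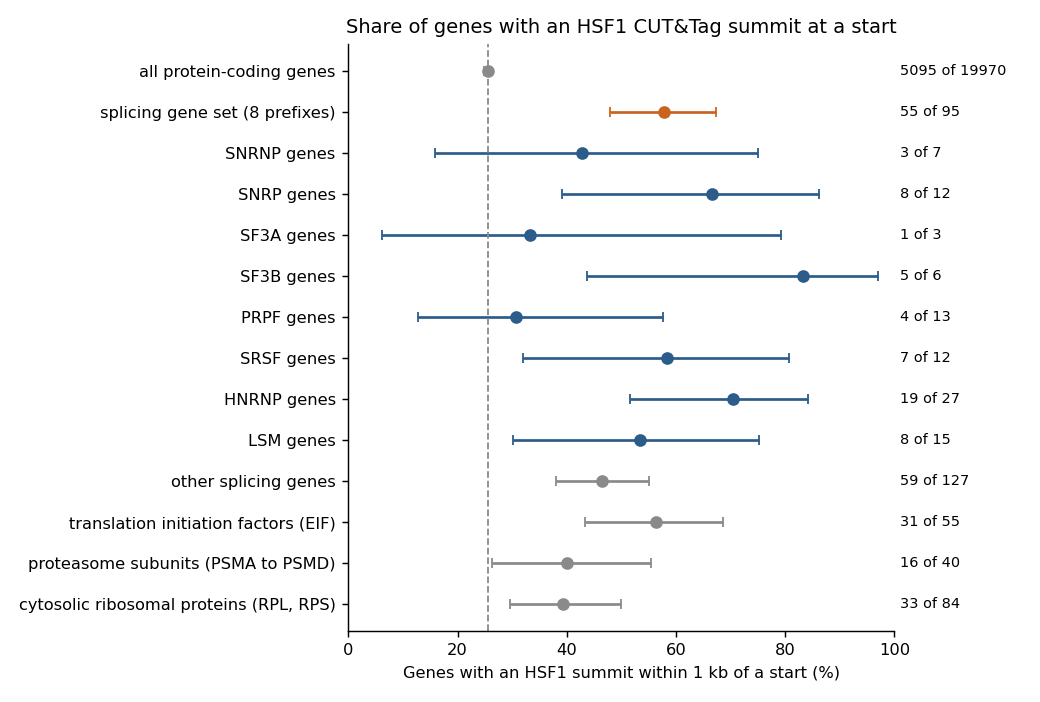
Percentage of genes with an HSF1 CUT&Tag summit within 1 kb of a transcript start (x axis) for all coding genes, the splicing genes, each prefix and 4 comparison sets, with 95% Wilson intervals as bars and counts at the right. The splicing genes stood at 57.9% and all coding genes (dashed line) at 25.5%.

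Other gene sets of general cell function were also above the background. Among 127 further splicing genes outside the 8 prefixes, 59 were bound (46.5%, 38.0% to 55.1%). Translation initiation factors with the prefix EIF reached 31 of 55 (56.4%, 43.3% to 68.6%), proteasome subunits 16 of 40 (40%, 26.3% to 55.4%) and ribosomal protein genes 33 of 84 (39.3%, 29.5% to 50%). The share of the splicing genes was thus close to that of the EIF genes, and its interval overlapped those of the proteasome and ribosomal protein genes.

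A gene with more annotated starts has more places where a summit counts under the rule used. Whether this has a part in the shares below was not tested. With the canonical start only, 54 of 95 splicing genes (56.8%) and 22.9% of all coding genes were bound. Among genes with 1 or 2 distinct starts, 8 of 18 splicing genes (44.4%) and 10.9% of all coding genes were bound, and among those with 10 or more starts 20 of 27 (74.1%) and 38.5%. The splicing genes had a median of 7 starts and all coding genes a median of 5. By base composition of the 200 bp at the canonical start, 1 of 10 splicing genes with under 50% G and C was bound, against 4.47% of all coding genes in that class. In the classes of 50 to 60%, 60 to 70% and 70% or more, 66.7%, 63.4% and 61.5% of the splicing genes were bound, against 19.3%, 35% and 28.3% of all coding genes.

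The height of a peak was read as its pileup, the count of extended tags that cover the summit, and its fold enrichment, (pileup + 1) divided by (local background + 1). The median pileup of the bound splicing genes was 14 tags (95% interval of the median, from its order statistics, 13 to 19; lowest 6, highest 74), and over all bound coding genes it was also 14. The median fold enrichment was 7.78 (7.28 to 8.33) against 7.29 (7.22 to 7.33) over all bound coding genes, and the median peak length was 443 bp against 392 bp. The share of bound splicing genes with at least 20 tags was 18 of 55 (32.7%, 21.8% to 45.9%), against 24.8% of all bound coding genes. So the share of genes with a summit stood well above the background, while the medians of height stood close to it.

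**Figure D2:**
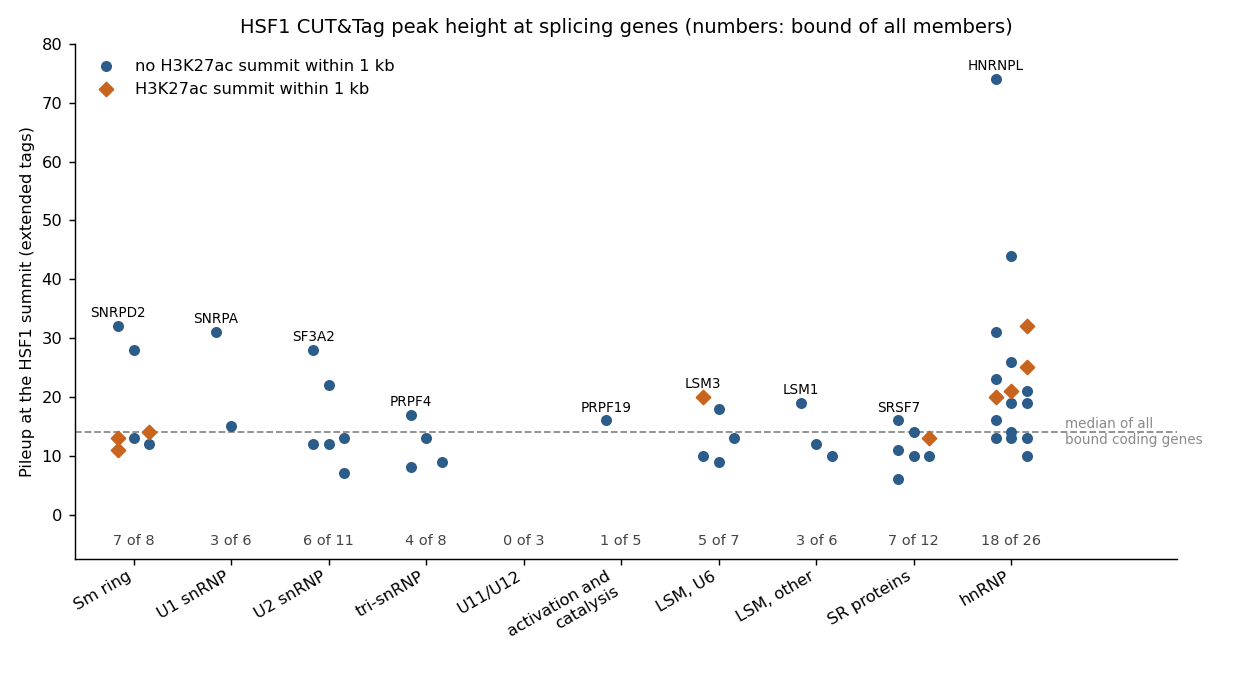
Pileup at the highest HSF1 summit (y axis, extended tags) of 53 of the 54 bound splicing genes with an assigned role, 1 point per gene, by role; diamonds mark genes with an H3K27ac summit within 1 kb, the dashed line is the median of all bound coding genes, and the counts under the points give bound and all genes of a role. HNRNPL (74 tags) and HNRNPC (44) stood above all others, and no gene of the U11/U12 snRNP was bound.

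The Sm proteins form the ring that is common to the U1, U2, U4 and U5 snRNPs. All 7 genes of the general ring were bound, and the eighth gene of the list, SNRPN, an imprinted relative of SNRPB, was not; its nearest HSF1 summit was 1258 kb away. SNRPD2 had the highest pileup of the ring with 32 tags and a fold enrichment of 9.94, at a summit 10 bp after a start. That start was not the canonical one, and the summit lay 0.606 kb upstream of the canonical start. It was also 107 bp from a start of QPCTL on the other strand. SNRPD3 had 28 tags, but its summit lay 590 bp upstream of its nearest start and 186 bp from that of GUCD1, the neighbour on the other strand. SNRPG had the lowest pileup, 11 tags (fold enrichment 7.23), at a summit 2 bp from a start. SNRPB (13 tags), SNRPD1 (14), SNRPE (12) and SNRPF (13) lay between them, within counting error of each other.

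The U1 snRNP recognises the 5′ splice site. Its gene SNRPA had 31 tags and a fold enrichment of 11.6, and SNRNP70 had 15 tags and 8.79. The third U1-specific gene, SNRPC, had its nearest HSF1 summit 365 kb away, and PRPF39 and PRPF40B were unbound.

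The U2 snRNP binds the branch site with the SF3A and SF3B complexes. SF3A2 had the highest pileup of this group, 28 tags with a fold enrichment of 9.35, and SF3B3 the lowest, 7 tags and 4.71. SF3B6, for the protein that touches the branch point adenosine, had 22 tags and 9.66. For both SF3B3 and SF3B6 a start of a neighbour on the other strand was nearer to the summit. It was COG4 for SF3B3 (23 bp against 364 bp) and FAM228B for SF3B6 (31 bp against 184 bp). SF3B1, the large scaffold protein that is often mutated in blood cancers, had 12 tags and 6.70, SF3B2 had 13 tags and SF3B5 12. SF3A1, SF3A3, SF3B4 and the U2-specific genes SNRPA1 and SNRPB2 were unbound, so that 6 of 11 genes of this group were bound.

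The tri-snRNP brings the U5 proteins that form the heart of the spliceosome. Of its 8 genes 4 were bound. PRPF4 had the highest pileup, 17 tags, and its summit lay 204 bp upstream of its start and 111 bp from that of CDC26 on the other strand. SNRNP200, for the helicase that unwinds U4 from U6, had 13 tags, and PRPF8, for the scaffold of the catalytic centre, had 9 tags in a peak of the minimum length, 200 bp, with a fold enrichment of 6.76. SNRNP40 was lowest with 8 tags and 5.84. PRPF3, PRPF6, PRPF31 and SNRNP27 were unbound. Of the 5 genes for activation and catalysis 1 was bound (20%, 3.62% to 62.4%), near the 25.5% of all coding genes. It was PRPF19, for the ubiquitin ligase of the PRP19 complex (16 tags, fold enrichment 7.33), and PRPF18, PRPF38A, PRPF38B and PRPF4B were unbound. None of the 3 genes of the U11/U12 snRNP of the minor spliceosome, SNRNP25, SNRNP35 and SNRNP48, was bound (0 of 3, interval up to 56.1%).

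LSM proteins form rings like the Sm proteins, and those from LSM2 to LSM8 hold the U6 snRNA. Of these 7 genes 5 were bound. LSM3 had the highest pileup with 20 tags and a fold enrichment of 11.1, above 94.1% of all bound coding genes, followed by LSM4 with 18 tags, LSM5 with 13, LSM8 with 10 and LSM6 with 9. LSM2 and LSM7 were unbound. LSM2 lies in a stretch of 5 Mb on chromosome 6 that holds the major histocompatibility complex, and there 5 of 183 coding genes (2.73%) were bound. Of the other LSM genes, LSM1, whose protein acts in mRNA decay, had 19 tags, LSM14B had 12 and LSM11, of the U7 snRNP that processes histone pre-mRNA, had 10. LSM10, the partner of LSM11 in the U7 ring, was unbound, as were LSM12 and LSM14A.

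SR proteins bind exonic enhancers and recruit the snRNPs. Of the 12 SRSF genes 7 were bound, with a median pileup of 11 tags and a median fold enrichment of 6.88, the lowest medians among the prefixes with more than 3 bound genes. SRSF7 was highest with 16 tags and 8.76, and SRSF5 had the lowest pileup of all 55 genes, 6 tags (exact 95% Poisson interval 2.20 to 13.1), with a fold enrichment of 4.79. SRSF2 had 14 tags, SRSF11 13, SRSF4 11, and SRSF6 and SRSF9 10 each. SRSF1, the founding member of the family, had its nearest HSF1 summit 345 kb away, and SRSF3, SRSF8, SRSF10 and SRSF12 were unbound as well.

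The 2 highest peaks by pileup were at hnRNP genes. Of 26 genes 18 were bound, with a median pileup of 20.5 tags and a median fold enrichment of 8.93. HNRNPL, for a protein that binds CA-rich RNA, had 74 tags (exact 95% Poisson interval 58.1 to 92.9) in a peak of 902 bp at chr19:38849925-38850826, a pileup above that of 99.9% of all bound coding genes. Its fold enrichment was 11.7, because the local background, 5.42 tags, was the highest of the 55 genes. HNRNPC, for a protein that binds uridine tracts, had 44 tags (32.0 to 59.1) and the highest fold enrichment, 12.9, in a peak at chr14:21269277-21269921. The interval of HNRNPL did not overlap those of the genes below HNRNPC, while that of HNRNPC did overlap it. HNRNPD followed with 32 tags and a fold enrichment of 12.6, HNRNPUL1 with 31 and 10.1, HNRNPA2B1 with 26 and 9.31, and HNRNPK with 25 and 8.97. HNRNPDL had 23 tags, HNRNPA1 and HNRNPUL2 21, HNRNPA3 20, and HNRNPA0 and HNRNPH3 19. HNRNPH2 on the X chromosome had the lowest pileup, 10 tags, with a fold enrichment of 6.88, and HNRNPH1 had the lowest fold enrichment, 5.51.

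The unbound hnRNP genes were HNRNPAB, HNRNPM, HNRNPA1L2, HNRNPA1L3 and HNRNPCL1 to HNRNPCL4. The last 6 are near-identical copies of HNRNPA1 and HNRNPC. Whether reads map uniquely at their starts was not tested. All 6 had under 50% G and C at the canonical start, a class in which 4.47% of all coding genes were bound. Without these 6 genes, 55 of 89 splicing genes were bound (61.8%).

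On chromosome 19, 7 of 11 splicing genes were bound (HNRNPL, HNRNPUL1, LSM4, SF3A2, SNRNP70, SNRPA and SNRPD2), against 27.8% of all coding genes there. The median pileup of the bound splicing genes there was 31 tags, with a median local background of 2.1 tags. On the other chromosomes the 48 bound splicing genes had a median of 13 tags and a local background of 0.970. Over all bound coding genes the medians were 16 tags on chromosome 19, with a background of 1.26, and 14 elsewhere. Whether the higher local background has a part in these heights was not tested.

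HSF1 summits of the splicing genes lay close to the transcription starts and mostly before them. The median distance to the nearest start was 82 bp, against 94 bp over all bound coding genes, and 51 of 55 summits (92.7%) lay within 300 bp, against 86.6%. The summit was upstream of the nearest start in 46 genes (83.6%, against 74.7% of all bound coding genes), downstream in 8 and on it in 1, HNRNPDL. The farthest upstream were those of SNRPD3 (590 bp), HNRNPL (498 bp), HNRNPUL1 (423 bp) and SF3B3 (364 bp), and the farthest downstream that of LSM6 (246 bp). The 1 kb limit cut no continuous range. The genes just inside it were SNRPD3, HNRNPL and HNRNPUL1, and the next genes outside were SNRPA1, HNRNPA1L2 and SNRNP27, whose nearest summits were 7.89, 10.2 and 10.4 kb away.

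**Figure D3:**
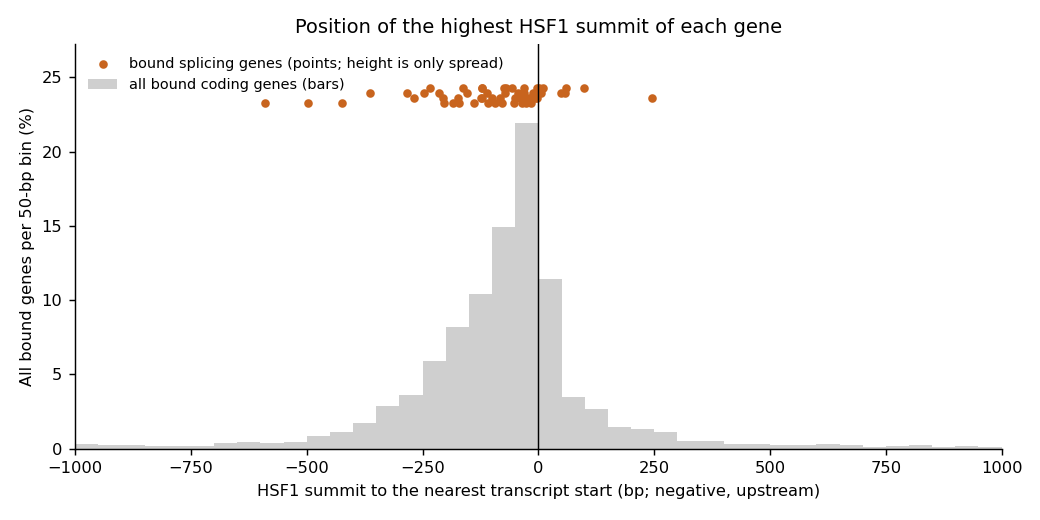
Distance from the highest HSF1 summit of a gene to its nearest transcript start (x axis, bp, negative is upstream); bars give the percentage of all 5095 bound coding genes per 50-bp bin, and points the 55 bound splicing genes, whose height on the y axis is only spread. The points clustered within 300 bp upstream of the start, as did the bars.

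A few genes had their summit at a start other than the canonical one. Among them was SNRPD2, whose summit lay 0.606 kb upstream of the canonical start. The summit of SRSF9 lay 110 bp upstream of an annotated start but 26.3 kb upstream of the canonical start, and 26 bp from a start of DYNLL1 on the other strand. SRSF11 had a peak at each of 2 groups of starts, one of 13 tags 15 bp upstream of its outermost start and one of 10 tags 71 bp after another. LSM5 and HNRNPA1 also had 2 peaks each within 1 kb of their starts. HNRNPA1, whose protein binds exonic silencers, had 21 tags at 51 bp upstream and 19 tags at 379 bp upstream.

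Many summits lay between a splicing gene and a neighbour on the other strand. A coding gene on the opposite strand began within 1 kb upstream of the canonical start of 20 of 95 splicing genes (21.1%), against 9.49% of all coding genes. Of these 20 genes 15 were bound (75%), against 53.1% of all coding genes with such a partner. Without a partner 40 of 75 splicing genes (53.3%) and 22.6% of all coding genes were bound. The bound genes with a partner had a median pileup of 21 tags and those without one 13, while over all bound coding genes these medians were 15 and 14. In 25 of 55 bound splicing genes (45.5%, against 34.2% of all bound coding genes) the summit also lay within 1 kb of a start of another coding gene, and in 11 (20%, against 17.5%) the other start was nearer.

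Named pairs of this kind include HNRNPA2B1 with CBX3 and HNRNPA1 with CBX5, both partners being genes for heterochromatin proteins. The summit of HNRNPA2B1 was 49 bp from its own nearest start and 164 bp from that of CBX3, and the highest summit of HNRNPA1 was 51 bp from its own and 479 bp from that of CBX5. LSM3 shared its summit with XPC, a DNA repair gene whose start was nearer (41 bp against 155 bp), SRSF2 with MFSD11 (28 bp against 82 bp), and SNRNP40 with ZCCHC17 (5 bp against 215 bp). SRSF7 shared its summit with GEMIN6, a gene of snRNP assembly, at 3 bp from its own start and 179 bp from that of GEMIN6. When each peak was given only to the coding gene with the nearest start, 45 of 95 splicing genes (47.4%) and 21.2% of all coding genes were bound.

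CCAAT boxes were frequent at the splicing genes whether HSF1 was found there or not. From 150 bp before to 50 bp after the canonical start, CCAAT occurred on either strand in 46 of 95 splicing genes (48.4%, 38.6% to 58.3%), against 28.5% of all coding genes. It occurred in 28 of 55 bound splicing genes (50.9%, 38.1% to 63.6%) and in 18 of 40 unbound ones (45%, 30.7% to 60.2%), and these intervals overlapped widely. Over all coding genes it occurred in 36.7% of the bound and 25.6% of the unbound. Read the other way, 28 of 46 splicing genes with the box were bound (60.9%) and 27 of 49 without it (55.1%), against 32.9% and 22.6% of all coding genes. Without the genes matched by name only, CCAAT occurred in 27 of 54 bound splicing genes (50%) and in 16 of 38 unbound ones (42.1%). The unbound genes with the box include the copies HNRNPA1L3 and HNRNPCL1 to HNRNPCL3. Whether reads map uniquely at their starts was not tested. By prefix, the box was found in 17 of 27 HNRNP genes (interval 44.2% to 78.5%) and 9 of 15 LSM genes (35.7% to 80.2%). It was found in 3 of 12 SRSF genes (8.89% to 53.2%) and none of the 3 SF3A genes (up to 56.1%). These intervals overlapped, and those of the SRSF and SF3A genes included the 28.5% of all coding genes.

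**Figure D4:**
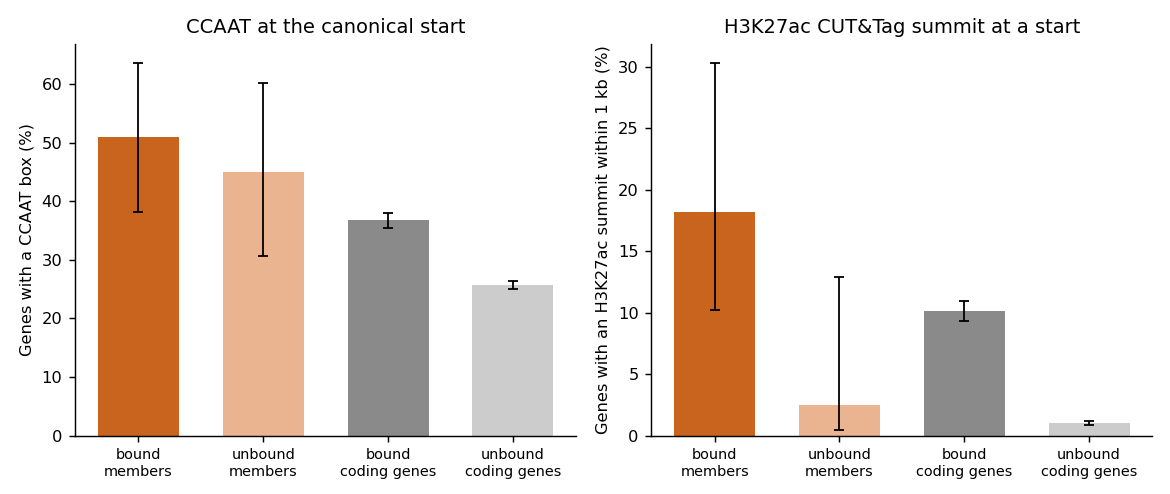
Percentage of genes with a CCAAT box from 150 bp before to 50 bp after the canonical start (left) and with an H3K27ac summit within 1 kb of a start (right), for bound and unbound splicing genes (members) and all bound and unbound coding genes, with 95% Wilson intervals. CCAAT stood at 50.9% and 45% in bound and unbound splicing genes, and H3K27ac at 18.2% and 2.50%.

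At the summits themselves, CCAAT lay within 100 bp in 23 of 55 bound splicing genes (41.8%, 29.7% to 55.0%), against 36.5% of all bound coding genes. Those 23 genes had a median pileup of 19 tags and the other 32 a median of 13, while over all bound coding genes the medians were 15 and 13. The median fold enrichment did not follow this, at 7.75 with a box and 7.80 without one in the splicing genes, against 7.79 and 7.02 over all bound coding genes. At least 2 boxes within 100 bp were found in 11 genes (20%, against 15.1%). HNRNPA1 had 4, all on the strand of the gene, and their centres lay 75 bp before and 1, 31 and 61 bp after the summit, so that the last 3 were spaced 30 bp apart. SNRPA, shown above, had 3 on the other strand, at 8 bp before and 30 and 61 bp after the summit. SNRPD2 had 3, and HNRNPL had 2 at 46 bp before and 16 bp after. The boxes of SRSF2 and SRSF5 were centred on the summit.

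**Figure D5:**
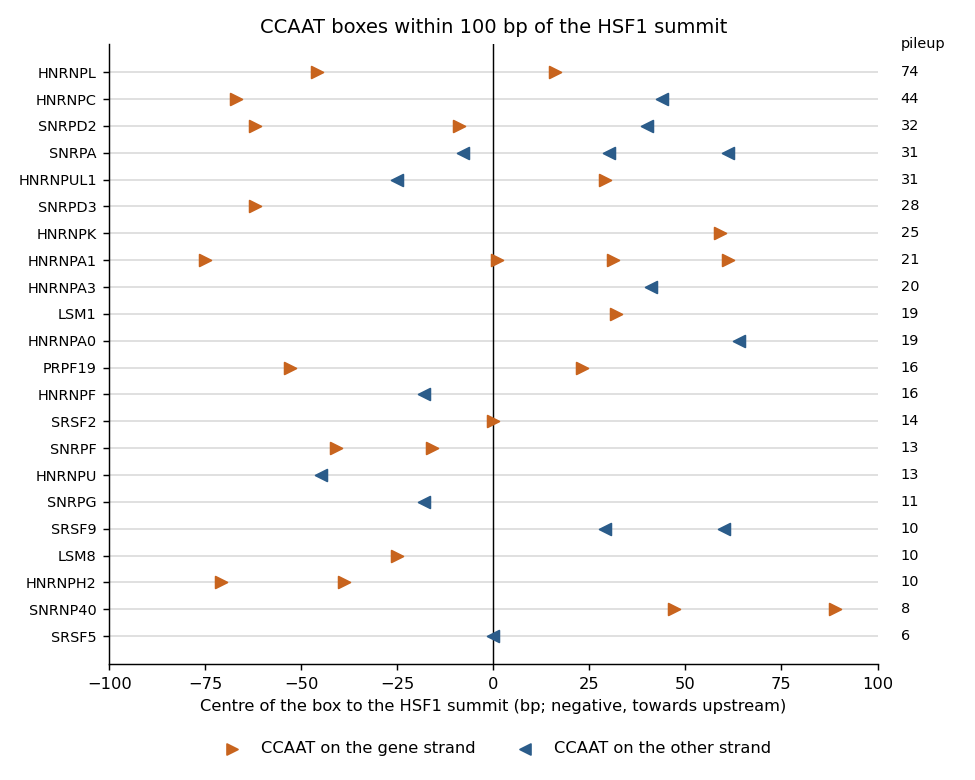
CCAAT boxes within 100 bp of the HSF1 summit in 22 of the 23 bound splicing genes that had one, ordered by pileup (numbers at the right, extended tags); the x axis is the distance from the centre of the box to the summit in bp, and arrows give the strand relative to the gene. HNRNPA1 had 4 boxes and SNRPA and SNRPD2 3 each.

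At least 2 boxes in the window at the canonical start were found in 13 splicing genes (13.7%, against 8.27% of all coding genes). Of these, 9 were bound: HNRNPA1, HNRNPC, HNRNPK, HNRNPL, HNRNPUL1, LSM6, SNRNP40, SNRPF and SNRPG. Over all coding genes with at least 2 boxes, 743 of 1652 were bound. The other 4 splicing genes, HNRNPAB, HNRNPCL3, SNRNP25 and SRSF3, were not. HNRNPUL1 had 4 boxes, of which the pair 63 and 60 bp before the start overlapped on opposite strands. Over all 41 boxes in the 55 bound splicing genes the median position was 85 bp before the start, and over the 22 boxes in the 40 unbound ones 64.5 bp. In all coding genes these medians were 77 bp in bound and 73 bp in unbound genes.

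Other promoter motifs were searched in the same window, on both strands. The 10-letter motif of the factor NRF1 was found in 15 of 95 splicing genes (15.8%, against 7.36% of all coding genes), and the ETS motif CCGGAAGT in 12 (12.6%, against 5.57%). In bound and unbound splicing genes the shares were 16.4% and 15.0% for the first and 10.9% and 15.0% for the second, with overlapping intervals. Over all coding genes they were 11.8% in bound and 5.85% in unbound genes for the first, and 8.48% and 4.58% for the second. The GC box GGGCGG was found in 54.5% of the bound splicing genes and 69.6% of all bound coding genes. The TATA box TATAAA was found in 7.37% of the splicing genes (against 7.12% of all coding genes), the cyclic AMP response element TGACGTCA in 1.05% (2.34%), the YY1 motif AAGATGGCG in 4.21% (2.61%) and the E-box CACGTG in 11.6% (6.67%). The shares of all coding genes for TATA, the cyclic AMP response element and YY1 lay within the intervals of the splicing genes, and for the E-box at the lower end of it. A 10-letter palindrome, in capitals below, was found in 4 splicing genes (4.21%, against 0.526%), the bound genes HNRNPH3 and LSM3 and the unbound genes LSM14A and SRSF10. It is shown for LSM3 (chr3:14178819-14178838, plus strand) and SRSF10 (chr1:23980365-23980384, minus strand), 1 gene with and 1 without an HSF1 summit.
LSM3: tgtgtTCTCGCGAGAggcgg
SRSF10: tgaagTCTCGCGAGAagagt

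H3K27ac marks active promoters and enhancers. An H3K27ac CUT&Tag summit lay within 1 kb of a start in 11 of 95 splicing genes (11.6%, 6.59% to 19.6%), against 3.32% of all coding genes. Of the bound splicing genes 10 of 55 had one (18.2%, 10.2% to 30.3%), against 10.1% of all bound coding genes, and of the unbound 1 of 40 (2.50%), against 1.00%. SNRPG had the highest H3K27ac pileup with 15 tags and a fold enrichment of 9.76, although its HSF1 pileup, 11 tags, was the lowest of the Sm ring. SRSF11 followed with 13 tags and 8.64. HNRNPA1, HNRNPA3 and HNRNPK had 10 tags each, SNRPB 8, HNRNPD and LSM3 7, SNRPD1 6, and LSM10, the unbound gene, 5. In the 10 genes with both, the H3K27ac summit lay 18 to 451 bp from the nearest HSF1 summit, with a median of 95.5 bp. HNRNPL and HNRNPC, the genes with the highest HSF1 pileup, had no H3K27ac summit within 1 kb; with 896393 tags left in that library, its absence from the list does not show that the mark was absent.

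The splicing genes without an HSF1 summit were, apart from those named by role above, LSMEM1 and LSMEM2. Their nearest summits lay between 7.89 kb (SNRPA1) and 1258 kb (SNRPN) away. At the 40 unbound genes the median share of G and C at the start was 62.3%, and at the 55 bound ones 64.5%. The 4 HNRNPCL genes, HNRNPA1L2 and HNRNPA1L3, SRSF8, SNRNP35 and LSMEM1 were the 9 unbound genes under 50%.

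Splicing factors outside the 8 prefixes are given here by role, beside the 25.5% of all coding genes that were bound. Among them 10 of 16 genes of snRNP assembly (62.5%, 38.6% to 81.5%), 10 of 17 U1- and U2-associated genes and 10 of 19 genes of the exon junction and export complexes were bound. With 7 of 25 genes of the PRP19 complex and catalysis (28%, 14.3% to 47.6%) and 2 of 7 of the minor spliceosome (28.6%, 8.22% to 64.1%), those roles were near the share of all coding genes, and their intervals overlapped that of snRNP assembly. Of the splicing regulators 15 of 31 were bound, and of the genes of the tri-snRNP and B complex 5 of 12. The highest pileups by group were 53 tags for PTBP1, a repressor of exons that is also counted among the hnRNPs, 34 for SF1, the branch point binding protein, 26 for NCBP1 of the cap-binding complex, 25 for TXNL4A of the U5 snRNP, 22 for PLRG1 of the PRP19 complex, 17 for RBM48 of the minor spliceosome and 16 each for GEMIN6 and STRAP of snRNP assembly. An H3K27ac summit was found at 10 of these 127 genes (7.87%, against 3.32% of all coding genes), with the highest pileup, 15 tags, at RBM39.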

How the data were processed

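HSF1 and H3K27ac CUT&Tag of untreated Huh7 cells were used, with 1 library each of the 12 samples. Per the file headers, the authors called peaks on each library by itself with MACS 2.1.4, from reads on hg38, without a control, at a p-value cutoff of 1e-05, with tags shifted by -100 bp and extended to 200 bp and 1 tag kept per position. The deposited pileup is a signal, in extended tags without adjustment for library size. Fold enrichment, also as deposited, is a ratio to the local background. The deposited −log10 p and −log10 q values were used only for a stricter threshold (−log10 q of at least 5); the headers say that q was not calculated, although the column holds values. The H3K27ac ChIP-seq peak lists are on hg19 and were not used, and no positions were converted.

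Summits were matched to every transcript start of GENCODE release 44 with a window of 1 kb, and the highest peak by pileup was kept for a gene. Motifs were counted in hg38. The local background was computed from pileup and fold enrichment. Genes were named by a rule: the highest and lowest pileup in each role, the 5 highest by pileup and by fold enrichment, all with an H3K27ac summit, all unbound, the 3 nearest to the limit on either side, those with 2 or more CCAAT boxes, and the highest in each further list. Values of 1 gene that the rule names are not reported here, though the counts include it. Other genes named in the text were chosen after their values were seen. The genes, lists and roles were chosen with earlier results of these data known, so no test was made. Wilson and Poisson intervals (95%) cover counting error only, and tags without molecular identifiers are not independent molecules. Python 3.11.15, pandas 2.3.3, scipy 1.17.1 and pysam 0.24.0 were used, and the functions were tested on simulated data.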

Additional observations from a re-analysis of the deposited data

How the results depend on the processing

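Of 44 alternative values for 7 results, 33 stayed within the interval of the value reported and 11 moved out of it. With each peak given only to the nearest coding gene, 47.4% of the splicing genes were bound. The share of all coding genes moved to 24.4% for summits within 500 bp, 26.4% within 2 kb, 22.9% at canonical starts, 21.5% at outermost starts, 22.1% at −log10 q of at least 5, 24.5% at a fold enrichment of at least 5 and 21.2% with the nearest gene only. In every one of these settings the splicing genes stood 2.20 to 2.48 times above all coding genes. CCAAT was found in 34.7% of the splicing genes from 100 bp before the start to the start. The share of all coding genes was not counted for that window, so this value has no background beside it. A longer form of the motif with restricted flanking bases was found in 18.9% of the splicing genes, against 10.98% of all coding genes. Among the bound splicing genes 21.8% had it (12.9% to 34.4%), an interval that included the 16.82% of all bound coding genes. These shares were below those of CCAAT, since the longer form asks more of the sequence. Leaving out chromosome 6 (61.4% bound), the 3 genes matched by name only, the near-identical copies or, for the heights, chromosome 19 was chosen after seeing the data and moved no value out of its interval. The number of tags limits the precision of the heights, and whether it limits the number of H3K27ac peaks was not tested. No paired analysis was possible because each antibody had 1 library.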

Other observations

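On chromosome 6, chosen after its values were seen, 1 of 7 splicing genes was bound, SF3B5, and 22.4% of all coding genes, a difference that cannot be told apart from counting error with 7 genes. The unbound ones there were LSM2, PRPF4B, SNRNP48, SNRPC, SRSF3 and SRSF12. On chromosome 2, also chosen after its values were seen and among those with the highest shares, 8 of 9 splicing genes were bound, against 31.0% of all coding genes there.

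Away from the starts, the bodies of the splicing genes held 2 further HSF1 peaks. One lay in HNRNPLL, 4152 bp from its nearest start, with 7 tags and a fold enrichment of 6.15, and the other in the readthrough unit HNRNPUL2-BSCL2, 21037 bp from its start, with 12 tags and 7.14.

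The nearest HSF1 summit to the unbound gene SNRNP27, 10.4 kb away, had 47 tags and a fold enrichment of 13.6, more by pileup than any of the 95 genes with the 8 prefixes but HNRNPL.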
